A study of Mus musculus with 14 samples.

Results

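Prox1 (ENSMUSG00000010175) and its antisense transcript Prox1os (ENSMUSG00000079045) were followed by their gene symbols through all 14 single-cell libraries, as 2 of the 31054 genes counted. The cells were Atoh1-lineage (TdTomato-positive) cells of C57BL/6J mice, sorted by flow cytometry and profiled with the 10x Chromium 3′ kit. Control embryos were Atoh1 Cre/+; Rosa lsl-tdTomato/+ and mutant embryos, called Atoh1S193A/-, were Atoh1 Cre/S193A; Rosa lsl-tdTomato/+. The Cre was knocked in over the Atoh1 coding region, so that both genotypes carried 1 null copy of Atoh1 and differed in the other copy, which was wild type in controls and the S193A hypomorph in mutants. Whole hindbrains were taken at E14.5 and E18.5 from 3 control and 3 mutant embryos each, 1 embryo per library, each mutant with a littermate control. Dissected pontine nuclei (PN) were taken at P5 from controls only, as 2 libraries of pooled pups.

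Prox1 is a homeodomain transcription factor of the prospero family. It is known as the master regulator of lymphatic endothelial fate, and in the nervous system for driving progenitors out of the cell cycle and for maintaining the identity of neurons such as hippocampal granule cells. Prox1os is a spliced noncoding RNA that is read from the opposite strand, starting inside the first exon of Prox1. Neurons of the pontine nuclei, the main relay from cerebral cortex to cerebellum, arise in the Atoh1-positive caudal rhombic lip and migrate tangentially along the brainstem before they differentiate.

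In the GENCODE M21 annotation of GRCm38 (the assembly of mm10), Prox1 lies on the minus strand of chromosome 1, at chr1:190118035-190170714, with up to 5 exons in a transcript. Prox1os lies on the plus strand, at chr1:190170296-190217276, with 2 exons and a spliced length of 828 bases. The genes share 419 bases, and the first exon of Prox1os lies antisense within the first Prox1 exon over 133 bases. The kit reads the 3′ ends of transcripts, which lie at the far, opposite ends of the pair, outside the shared bases. Sequences are shown for the outermost promoter of Prox1 and for the end of the noncoding RNA that the 3′ assay targets. The RefSeq (GRCm38.p6) promoter of Prox1, the 250 bases before its outermost start (chr1:190170828-190171077, minus strand, here in the sense of Prox1), lies inside the intron of Prox1os. Capitals mark CAGATG, a form of the E-box that Atoh1 is known to bind. It occurs once, 179 bases before the start. The window before another RefSeq start of Prox1 (chr1:190169516-190169765), which is not shown, does not hold it. The letters CAGATG, on either strand, were held by 14.4% of the 32851 RefSeq promoters of the same length. CAGCTG, searched on both strands in the same way, is in neither Prox1 window and was held by 13.0% of promoters. A match of letters does not show binding.
Prox1 promoter: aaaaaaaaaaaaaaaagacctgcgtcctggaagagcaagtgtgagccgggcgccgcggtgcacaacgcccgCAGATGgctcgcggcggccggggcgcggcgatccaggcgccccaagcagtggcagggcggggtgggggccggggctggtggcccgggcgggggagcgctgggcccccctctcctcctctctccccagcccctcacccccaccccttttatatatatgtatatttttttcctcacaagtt
The last 200 bases of Prox1os (chr1:190217077-190217276, plus strand, from the GENCODE M21 transcript) are shown with the polyadenylation signal AATAAA in capitals, which ends 15 bases before the annotated 3′ end.
Prox1os 3′ end: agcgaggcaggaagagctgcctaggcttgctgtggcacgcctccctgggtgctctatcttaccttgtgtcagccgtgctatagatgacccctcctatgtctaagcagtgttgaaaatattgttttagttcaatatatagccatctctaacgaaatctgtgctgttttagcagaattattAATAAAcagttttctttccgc

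The libraries held 108239001 to 236964126 UMIs (unique molecular identifiers, 1 for each captured RNA molecule) and 3248 to 8726 cells after filtering, 80250 in all, with a median of 12010.5 to 20922 UMIs in a cell. They held 68499 UMIs of Prox1 and 9855 of Prox1os before cells were filtered. Levels are given as CPM, the gene's UMIs per 1000000 UMIs of all cells of a group summed, in each library. These are not scaled by length, because a 3′ assay counts molecules by their ends, and the share of molecules captured may differ between the 2 transcripts. Pairs of libraries shared 3 to 22 cell barcodes. The second E14.5 litter (control 2 and Atoh1S193A/- 2, with libraries of the same number taken as littermates) stood apart: 4 of 16 subclusters of PN-like cells came over 95% from it and held 91.0% of its 1945 PN-like cells, and only 3 of the 1376 cells called migrating neurons-1 were its own. The fits between genotypes at E14.5 are therefore also given without it, and migrating neurons-1 and intermediate progenitors rest on 2 libraries per genotype. Embryos were separate, so that the tests measure the spread between embryos, and a lower level summed over cells can come from fewer cells of a type or from less RNA per cell, which cannot be told apart in a sum.

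PN-like cells were defined by Hoxb2 to Hoxb5, Pax6 and Barhl1, genes of the caudal rhombic lip, and their states and subtypes by the study's own marker lists, with Prox1 and Prox1os left out of the clustering and of every list. They numbered 7282 at E14.5, 1731 in controls and 1525 in mutants at E18.5, and 7459 at P5. The lists were found by the study on these same libraries, so they are no independent evidence of a state. Differences between states or classes are described by the ranges of the libraries and were not tested, since the groups come from clusters of the same cells.

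Among the named states of PN-like cells at E14.5, Prox1 was lowest in progenitors and highest in migrating neurons-2. A subcluster of differentiated neurons, given below, had a higher mean. In control progenitors Prox1 stood at 13.99, 13.3 and 13.9 CPM in the 3 libraries. In control intermediate progenitors, the Atoh1-high cells that have just left the progenitor pool, it was 39.1 and 53.0 CPM. Migrating neurons-1 had 83.0 and 80.5 CPM, and migrating neurons-2, which are high in the axon guidance receptor gene Robo3, had 159, 144 and 162 CPM. These ranges did not overlap. The border between intermediate progenitors and migrating neurons-1 rests on a near tie, however: the larger subcluster of migrating neurons-1 (805 of 1376 cells, at 60.4 CPM) scored 1.42 for that state and 1.38 for intermediate progenitors, as mean z scores of the marker lists, and the other one had 119 CPM. At a finer resolution, a subcluster with many of the same leading genes (354 cells, 55.6 CPM) took the name intermediate progenitors. The order from progenitors to migrating neurons-2 was also seen in the mutants, at 15.6 ± 1.04 (SD, n = 3), 40.4 ± 4.06 (n = 2), 89.4 ± 7.59 (n = 2) and 173 ± 14.1 CPM (n = 3). Differentiated control neurons spread widely, at 102, 142 and 74.4 CPM, so that their range included migrating neurons-1 and ended just under migrating neurons-2.

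The spread among differentiated neurons was also seen between 3 of their subclusters. The one led by Hoxa5, Hoxb5 and Hoxc4, genes of caudal position, had 180 ± 21.4 CPM in controls (n = 2). The one led by Sst, the gene for somatostatin, had 24.2 ± 0.157 CPM (n = 2). The subcluster led by Syt4 and Kctd12 lay between them, at 72.5 ± 11.4 CPM (n = 3). In mutants the same 3 subclusters had 199 ± 12.01, 20.4 ± 4.42 and 82.2 ± 9.60 CPM (n = 2 each). Subclusters of differentiated neurons not given here include one of 495 cells, 485 of them from the second litter.

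Prox1os was low in progenitors and intermediate progenitors, and in controls its mean was highest in differentiated neurons. It was 1.16 ± 0.44 CPM in control progenitors (n = 3), 5.05 and 0 CPM in control intermediate progenitors, and 7.24 ± 2.07 CPM in migrating neurons-1 (n = 2). It reached 43.5, 14.49 and 27.1 CPM in migrating neurons-2, where the low value is that of the second litter. In differentiated control neurons it stood at 33.2, 38.6 and 31.5 CPM. In mutants the order of the last 2 means was the other way round, at 28.7 ± 10.8 CPM in migrating neurons-2 and 24.3 ± 2.14 in differentiated neurons (n = 3 each), and the libraries overlapped. Set against Prox1, there were 8.83 ± 2.34 Prox1os UMIs per 100 Prox1 UMIs in migrating neurons-1 (n = 2), 18.05 ± 8.69 in migrating neurons-2 and 34.0 ± 7.68 in differentiated neurons (n = 3). The first and last of these did not overlap between libraries, while migrating neurons-2 overlapped with differentiated neurons. Because both genes are counted in the same libraries, a difference in depth does not move this ratio.

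**Figure D1:**
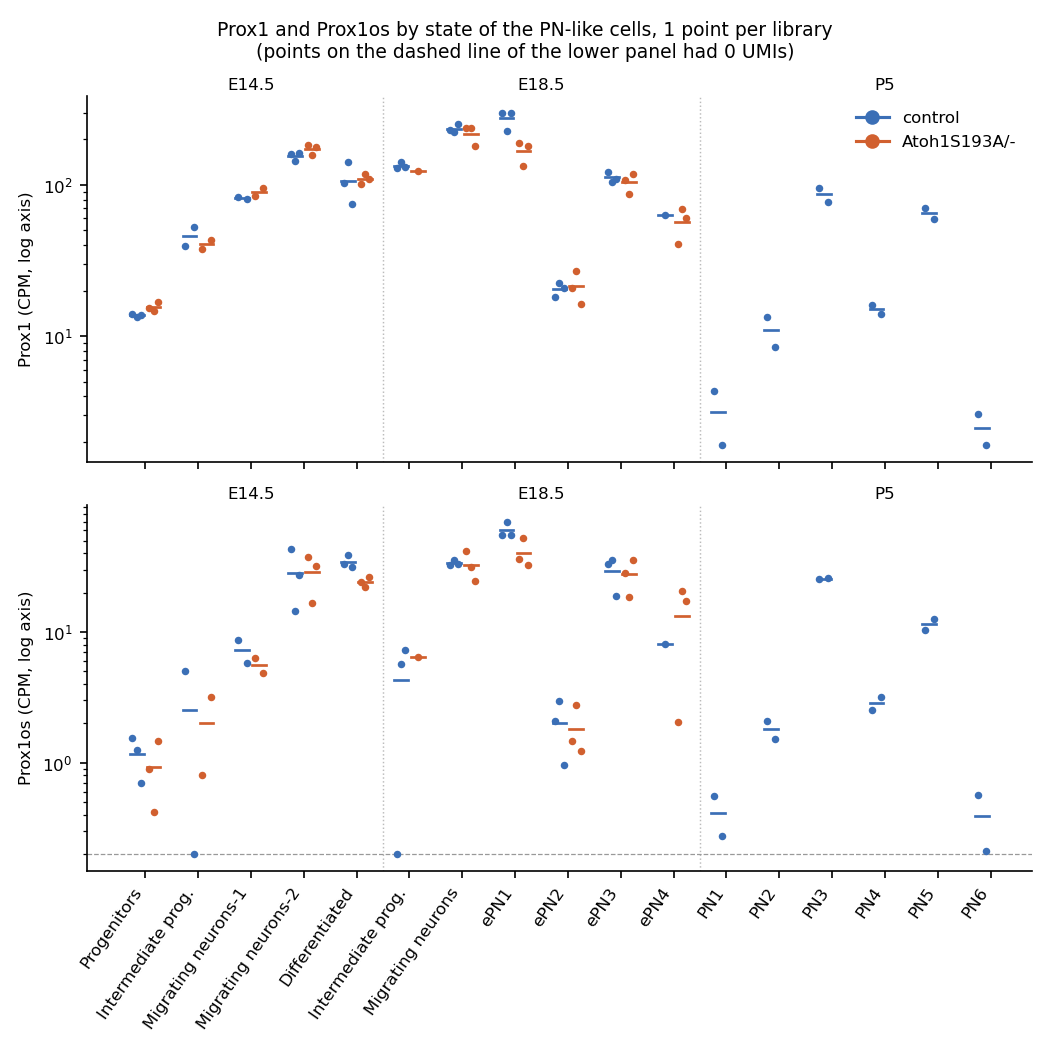
Prox1 (upper) and Prox1os (lower) in CPM on log axes, by state or subtype of the PN-like cells at E14.5, E18.5 and P5, with 1 point per library of at least 10 cells, a line at the mean and a dashed line for libraries with 0 UMIs. In the embryos the control means of Prox1 run from 13.7 CPM in E14.5 progenitors to 275 CPM in ePN1-like neurons at E18.5, and the PN1-like and PN6-like libraries of P5 lie below these, down to 1.90 CPM.

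At E18.5, the level in PN-like cells depended on the subtype. The subtypes carry the study's names ePN1 to ePN4. The study named Prox1 itself as the marker gene of ePN1 on these libraries, so a high level there is no independent finding. In controls the highest level was that of ePN1-like neurons, the subtype led by genes such as Zbtb20, Kctd12 and Cdkn1c, at 299, 227 and 300 CPM. Migrating neurons came next, at 230, 223 and 252 CPM, and the 2 groups overlapped. Intermediate progenitors had 134 ± 6.98 CPM (n = 3) and ePN3-like neurons, the Hoxb5 and Hoxa5 subtype, 112 ± 9.03 CPM (n = 3). The libraries did not overlap (129 to 142 against 105.3 to 122.5 CPM). The intermediate progenitors were only 20, 16 and 10 cells in control libraries 1, 2 and 3, however, so that their rank above ePN3-like neurons is uncertain. The ePN4-like neurons had 62.9 CPM in the 1 control library with at least 10 such cells. The ePN2-like neurons, which are high in Ephb1, Sst and Ebf1, had 18.2, 22.5 and 20.9 CPM. The lowest library of the pooled granule lineage-like class had 24.3 CPM, but single clusters of that class, over both genotypes, ran from 4.57 to 56.9 CPM. Prox1os kept the same ranks at the top and bottom, with 60.3 ± 8.44 CPM in ePN1-like, 33.6 ± 1.59 in migrating and 2.00 ± 1.00 in ePN2-like control neurons (n = 3 each). The ratio at E18.5 was low in the few intermediate progenitors (3.19 ± 2.87 Prox1os UMIs per 100 Prox1 UMIs, n = 3). It was higher in ePN1-like (22.6 ± 7.11) and ePN3-like (25.9 ± 8.36) neurons, while migrating neurons stood at 14.4 ± 1.41.

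Within migrating neurons at E18.5, Prox1 was also uneven. The subcluster led by Id4, Gad2 and Tle1 had 352 ± 30.6 CPM in controls and 329 ± 39.0 CPM in mutants (n = 3 each). The one led by Fbxl7 had 122 ± 13.3 and 125 ± 10.4 CPM. The earlier one led by Robo3, Nhlh1 and Crabp1 lay between them, at 234 ± 13.8 and 252 ± 55.4 CPM, with a low ratio of 8.22 ± 2.80 and 6.96 ± 1.92 Prox1os UMIs per 100 Prox1 UMIs.

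At P5, Prox1 was high in a subset of the pontine neurons. The PN3-like neurons, led by Gstm1, Cdkn1c and Zbtb20, had 95.4 and 77.4 CPM, and the PN5-like neurons, led by the nuclear receptor gene Nr2f2, had 69.9 and 59.6 CPM. The PN4-like neurons, high in Hoxb5, had 16.02 and 14.01 CPM, and the PN2-like neurons had 13.5 and 8.43 CPM. The PN1-like (Sst and Ebf1) and PN6-like (Igf1 and Etv1) neurons were lowest, with 4.37 and 1.92 CPM and with 3.05 and 1.90 CPM. PN3-like and PN5-like neurons did not overlap with each other or with any of the other 4, whereas PN1-like and PN6-like did overlap. Within the PN3-like neurons, the values ran from 34.8 ± 5.63 CPM in the subcluster led by Ezr and Gad2 to 134 ± 23.2 CPM in the small one led by Hoxa5 (n = 2 each). Prox1os had 25.6 and 25.7 CPM in PN3-like, 10.3 and 12.7 CPM in PN5-like, and 0.57 and 0.21 CPM in PN6-like neurons. With 2 libraries of 1 condition, P5 allows no test, and it differs from the embryonic libraries in dissection as well as age.

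The shares of cells with a UMI followed the levels only in part. At E14.5, over both genotypes, the inhibitory neuron-like cluster led by Hoxb8 had 64.5 CPM with a Prox1 UMI in 26.1% of cells. The PN-like cluster led by Rassf4 had 56.9 CPM with one in 54.2%. Prox1 was detected in 68.9% ± 2.73 of PN3-like and 5.79% ± 0.849 of PN6-like neurons at P5 (n = 2), at median depths of 25981 and 40370 UMIs. In P5 microglia-like cells, which come from another lineage, 11.3% ± 0.510 of cells held a Prox1 UMI and 0.114% ± 0.162 a Prox1os UMI, at 10269 UMIs. The level of Prox1 in them was 16.5 and 10.6 CPM. Unipolar brush cell-like cells held a Prox1 UMI in 2.94% and 0.518% of cells (4.37 and 0.74 CPM) at 6592.5 and 6917 UMIs. The share thus differed between classes not known for the gene, and no single background was set for P5. At E14.5, choroid plexus or roof plate-like control cells gave 15.8% for Prox1 at 8.65 ± 1.33 CPM and PN-like progenitors 23.2% at 13.7 ± 0.38 CPM. The former class pools 3 clusters, at 15.1 CPM in the one led by Id1, Id3 and Rspo1, 10.7 CPM in a cycling one, and 1.055 CPM, with a UMI in 2.32% of cells, in the one led by the choroid plexus gene Ttr.

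**Figure D2:**
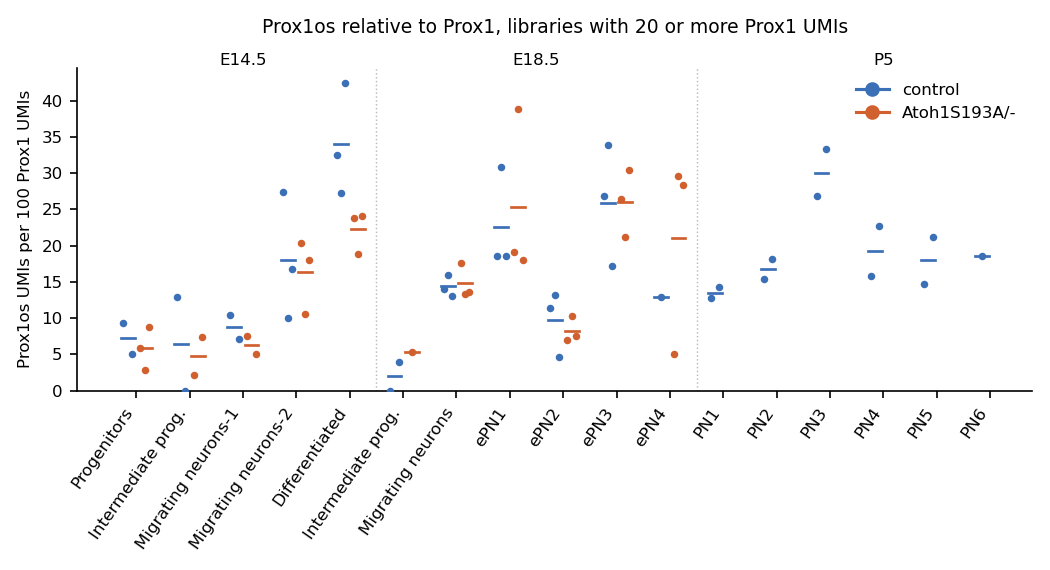
Prox1os UMIs per 100 Prox1 UMIs by state or subtype of the PN-like cells, with 1 point per library that had at least 20 Prox1 UMIs and a line at the mean. Progenitors, intermediate progenitors and migrating neurons-1 lie at or below 12.9, while E14.5 differentiated control neurons reach 27.2 to 42.4.

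Outside the PN-like cells, Prox1 was mostly low when averaged over a class, with exceptions among single clusters. Granule lineage-like cells, the cerebellar cells from the rostral rhombic lip, had 15.9 ± 1.18 CPM of Prox1 at E14.5 and 26.1 ± 1.59 at E18.5 in controls (n = 3), with 4.51 ± 0.19 and 4.15 ± 0.13 Prox1os UMIs per 100 Prox1 UMIs. At P5, oligodendrocyte lineage-like cells, in which Prox1 is known to act, had 41.2 and 42.2 CPM with a ratio of 6.35 and 5.09. Granule lineage-like cells of P5 had 36.9 CPM in a library with 12 such cells and 54.1 CPM in the other. Inhibitory neuron-like cells had 28.9 ± 9.19 CPM at E14.5 (n = 3). Over both genotypes, they pool a cluster led by Tfap2b and Lhx5 at 18.3 CPM and another led by Hoxb8 and Npy at 64.5 CPM. Lhx2/Lhx9 neuron-like cells of E14.5 had 17.5 ± 2.94 CPM with a ratio of 28.7 ± 8.83 (n = 3). The Lhx2/Lhx9 class pools 4 clusters that differ widely. Over both genotypes, its cluster led by Hoxa7, Hoxc6 and Hoxc8 (146 cells, 113 of them from control 2) had 195 CPM of Prox1, detected in 74.7% of cells, and 68.5 CPM of Prox1os. These levels were as high as the upper PN-like states, while the other 3 clusters, pooled likewise, had 11.7, 2.06 and 19.3 CPM of Prox1. In control cells alone, no E14.5 cluster of at least 50 cells exceeded 169 CPM of Prox1 or 66.0 CPM of Prox1os. Unipolar brush cell-like cells were among the lowest at E14.5 and P5, at 7.07 ± 1.38 CPM at E14.5 and 2.56 ± 2.56 CPM at P5 (n = 2). Their clusters at E18.5 stood higher, at 13.5 and 15.3 CPM over both genotypes. Microglia-like cells held 170 Prox1 UMIs and 1 Prox1os UMI. In the tested PN-like cells, Lyve1, Pdpn, Flt4 and Ccl21a, which mark the lymphatic endothelium where Prox1 is best known, were each under 1 CPM in each of the 4 populations, while the remaining gene of that list, Reln, is also expressed by neurons.

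Cells with a Prox1os UMI held Prox1 more often than cells without one. Among control ePN3-like neurons, 92.8% ± 8.55 of the cells with a Prox1os UMI also held a Prox1 UMI, against 37.2% ± 5.12 of the cells without one (n = 3), at like depths of 21232 and 20956 UMIs. In ePN1-like neurons these shares were 95.4% ± 2.49 and 69.9% ± 9.84, and in PN3-like neurons of P5 87.0% ± 1.60 and 58.4% ± 3.42 (n = 2). In migrating neurons-2 at E14.5, where nearly all cells held Prox1, they were 90.9% ± 3.96 and 86.9% ± 2.77 and overlapped. They also overlapped in differentiated neurons at E14.5, at 80.4% ± 4.84 and 65.0% ± 17.0 (n = 3). Cells of 1 library are not replicates, and subclusters within a group were not separated, so these shares are a description.

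**Figure D3:**
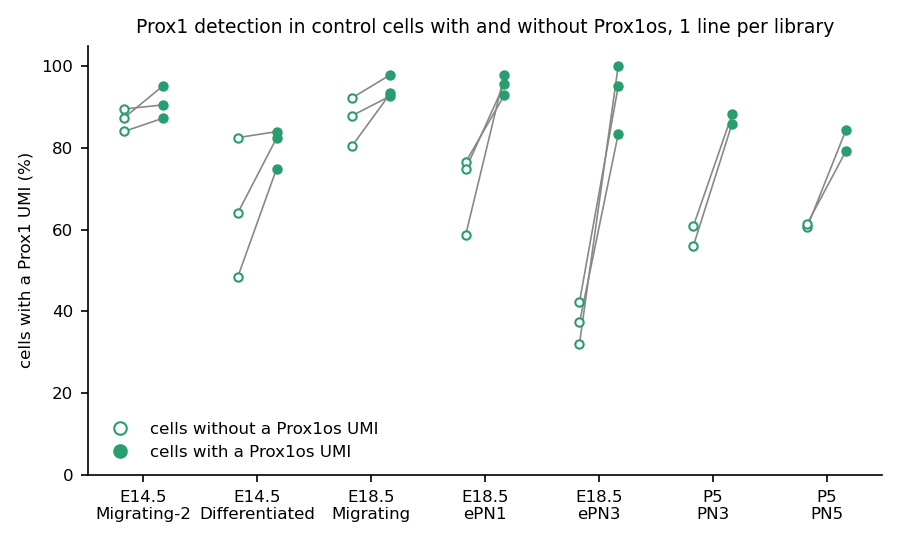
Share of control cells with a Prox1 UMI, in percent, among cells without (open) and with (filled) a Prox1os UMI, with 1 line per library that had at least 10 cells with Prox1os. Every line rises; the gap is widest in ePN3-like neurons (37.2% to 92.8% on average) and smallest in migrating neurons-2 (86.9% to 90.9%).

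Across all clusters of a stage, Prox1os was among the 3 genes whose level most resembled that of Prox1. Over the control cells of 34 clusters at E14.5, the Pearson correlation of log2(CPM + 1) between the 2 was 0.83, which ranked Prox1os at 3 of 12970 genes for Prox1 and Prox1 at the top for Prox1os. It was 0.83 over 26 clusters at E18.5, where Prox1os ranked first for Prox1 and Prox1 ranked 5 for Prox1os. It was 0.63 over 27 clusters at P5, where the ranks were 2 and 12. The others named for Prox1 were Bcas1 (0.87), Gm26801 (0.85), Cd1d1 (0.82) and Nhsl1 (0.82) at E14.5, Glyctk (0.74), Satb1 (0.73), Galr1 (0.72) and Lmo4 (0.71) at E18.5, and Tdrkh (0.67), Pou3f3 (0.62), Thsd7a (0.57) and Erbb4 (0.56) at P5. For Prox1os they were Gm26801 (0.77) and Hoxa5 (0.76) at E14.5, Hoxa4 (0.87), Crabp1 (0.87) and Hoxa3 (0.84) at E18.5, and Aldh3b2 (0.71), E130006D01Rik (0.70) and Nell1 (0.69) at P5. The clusters share libraries and many related cells, so these correlations rank genes and carry no test.

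The comparison of genotypes asked whether either transcript changed when Atoh1 function was reduced. It was made with edgeR's quasi-likelihood test on UMIs summed per library, over all genes, with genes called at a Benjamini-Hochberg FDR under 0.05 and a log2 fold change beyond 0.25 in either direction. Prox1 passed the filter on detection (a UMI in 10% of the cells of a group) in each of the 7 comparisons. Prox1os passed it in the 4 comparisons within PN-like cells and was kept in the 3 over all sorted cells in spite of the filter.

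Prox1 fell in the differentiated PN-like neurons of Atoh1S193A/- embryos at E18.5. Its level was 132, 114 and 118 CPM in the controls and 71.3, 66.4 and 75.7 CPM in the mutants, so that each mutant lay far below each control. The means were 121.5 ± 9.56 and 71.1 ± 4.66 CPM (n = 3 each). The log2 fold change was -0.77 ± 0.07 (SE), with a 95% interval from -0.93 to -0.61 and an FDR of 0.0028. Of the 10025 genes tested, 6 were called, a background of 0.0599%, and Prox1 was one of them. Under other settings or sets of cells the count of genes called ran from 0 to 137, as given at the end. The study had named Prox1 as the marker gene of its subtype ePN1, which it reported as reduced in mutants on these same libraries. The fall is therefore no independent evidence. Prox1 was lower in the mutant of each of the 3 litters, by 0.89, 0.78 and 0.64 on the log2 scale of CPM. The share of cells with a Prox1 UMI, with each cell thinned to 5000 UMIs, was 35.0%, 31.6% and 31.0% in controls and 22.4%, 21.5% and 22.1% in mutants. The difference of -10.50 percentage points had p = 0.1 by a two-sided exact permutation test, the smallest that 3 against 3 libraries allow. Without thinning the shares were 50.4% ± 3.81 and 39.6% ± 2.70.

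Prox1os pointed the same way in these neurons without passing the test. It had 27.0, 35.0 and 19.97 CPM in controls and 14.6, 17.0 and 18.6 CPM in mutants. These groups did not overlap, but control 3 came close to its mutant littermate. Prox1os gave a log2 fold change of -0.66 ± 0.20 (SE, 95% interval -1.09 to -0.23), with a raw p of 0.00618 and an FDR of 0.469. Prox1os stood at 22.7 ± 7.12 per 100 Prox1 UMIs in controls and at 23.5 ± 2.71 in mutants.

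The ePN1-like neurons differed between genotypes in their share and in their level of Prox1, neither of which was called here. The share was not tested here and the level missed the threshold. The study itself tested the share of ePN1 among all its PN cells at E18.5 and reported a significant reduction in mutants. By in situ hybridization at P5, it also reported fewer Cdkn1c-positive neurons of PN3, the subtype it matched to ePN1. The ePN1-like neurons were 32.4% ± 3.32 of the differentiated PN-like neurons in controls and 15.3% ± 1.21 in mutants (n = 3), with no overlap (28.9% to 35.5% against 14.1% to 16.5%). Among the ePN1-like neurons alone, Prox1 was 299, 227 and 300 CPM in controls and 189, 134 and 182 CPM in mutants. These ranges did not overlap either, with a log2 fold change of -0.66 and an FDR of 0.0778. Without them, over the ePN2-like to ePN4-like neurons together the log2 fold change was -0.11, with an FDR of 1.00. Prox1os showed 60.3 ± 8.44 and 40.3 ± 10.4 CPM in ePN1-like neurons, and a log2 fold change of 0.05 without them. These comparisons with and without ePN1-like neurons were added after the data had been seen. In the ePN2-like neurons, Prox1 was 20.6 ± 2.17 CPM in controls and 21.3 ± 5.41 in mutants. In the ePN3-like neurons it was 112 ± 9.03 and 104 ± 15.3 CPM, and in both subtypes the libraries of the 2 genotypes overlapped.

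The ePN1-like neurons were themselves of 3 kinds. The subcluster led by Mmd2 and C1ql3 had the highest Prox1 of the E18.5 subclusters, 466 ± 53.7 CPM in controls (n = 3) and 401 ± 60.2 CPM in mutants (n = 2). The one led by Cdkn1c, Dab1 and Zbtb20 had 235 ± 68.7 (n = 3) and 255 ± 80.6 CPM (n = 2). The one led by Pcdh15, Lrp1b and Kirrel3 had 69.1 ± 12.5 and 25.9 ± 5.59 CPM (n = 3 each), with no overlap. This last subcluster made up 24.7% ± 8.58 of the ePN1-like neurons in controls and 46.1% ± 6.34 in mutants. In the first 2, a mutant library with fewer than 10 cells was left out.

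**Figure D4:**
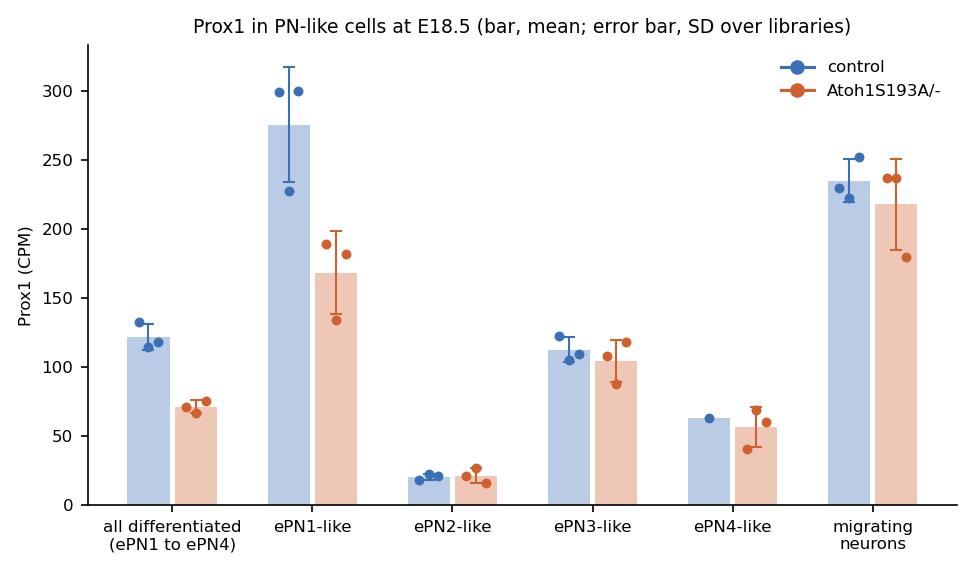
Prox1 in CPM for the differentiated PN-like neurons of E18.5 together, for the subtypes ePN1-like to ePN4-like and for migrating neurons, in control and Atoh1S193A/- libraries. Bars are means, error bars SD over libraries and points single libraries of at least 10 cells. The genotypes are apart in all differentiated neurons (121.5 against 71.1 CPM) and in ePN1-like neurons (275 against 168 CPM) and overlap in ePN2-like, ePN3-like and migrating neurons.

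Of the 16 lists of cell type markers, 3 did not overlap between the genotypes in these neurons. With 3 against 3 libraries, values in random order lie fully apart with a probability of 0.1, so the count is not read as a result. The summed inhibitory neuron list (8 genes) was 66.1 to 74.1 CPM in controls and 83.8 to 90.3 CPM in mutants, with Gad1, Slc32a1, Slc6a5, Lhx5 and Ptf1a under 1 CPM. The granule list (10 genes) ran from 2258 to 2414 CPM in controls and from 2148 to 2244 CPM in mutants, with Gli1 under 1 CPM. The endothelial list was 2.73 to 4.84 and 2.08 to 2.35 CPM, with each of its 7 genes under 1 CPM. Their part in the result was not tested.

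Over all PN-like cells at E18.5, the difference in Prox1 was smaller and was not called without the block. It was 158, 144 and 134 CPM in controls and 121, 110 and 90.6 CPM in mutants, with no overlap between genotypes. The log2 fold change was -0.45 ± 0.10 (SE, 95% interval -0.67 to -0.23), with an FDR of 0.855. With the littermate pairs as a block it was -0.46 with an FDR of 0.00357, past the threshold. No gene of 9930 was called by edgeR without the block (0%), with 351 genes at an unadjusted p under 0.05, 9 called by DESeq2 and 38 called with the block. Prox1os showed a log2 fold change of -0.41 ± 0.16 (SE), with an FDR of 1.00, which was -0.57 without control 3 and -0.25 without control 2. In migrating neurons, Prox1 stood at 235 ± 15.5 CPM in controls and 218 ± 32.8 CPM in mutants, and the libraries overlapped. All E18.5 sorted cells together, of which PN-like cells were 11.4% ± 5.01 in controls and 9.41% ± 3.20 in mutants, gave -0.16 ± 0.10 (SE) for Prox1 and -0.35 ± 0.22 for Prox1os. Leaving out control 1 or control 3 moved these to -0.24 or -0.056 and to -0.53 or -0.21, without a call. With all libraries the FDR was 1.00 for both, and no gene of 9884 was called (0%), with 117 at an unadjusted p under 0.05, 13 called by DESeq2 and 25 with the block.

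At E14.5, Prox1 did not pass the test in any of the 3 populations tested. In migrating neurons-2 it was 159, 144 and 162 CPM in controls and 184.9, 157 and 177 CPM in mutants. The mutant was higher in each litter, while the ranges of the genotypes overlapped. The log2 fold change was 0.12 ± 0.09 (SE, 95% interval -0.09 to 0.32). In differentiated neurons the mutants had 102, 118 and 110 CPM, within the range of the controls, with a log2 fold change of 0.01 ± 0.22 (SE, 95% interval -0.50 to 0.51). Without the second litter these values were 0.12 and 0.23. In differentiated neurons it was also 0.28 with up to 10% mitochondrial UMIs and 0.48 among libraries counted with Cell Ranger 5.0.1, which hold a single control, and from -0.19 without control 3 to 0.29 without control 2. All sorted cells gave -0.06 ± 0.15 (SE), from 32.2 ± 4.98 CPM in controls to 31.4 ± 3.97 in mutants, and -0.01 without the second litter. With all libraries and without the second litter, the FDR was above 0.9 in each of the 3 populations. The fits called 1 of 10241 genes over all sorted cells (0.00976%) and none of 9519 in migrating neurons-2 or of 9836 in differentiated neurons (0% each). In the last 2, 236 and 157 genes had an unadjusted p under 0.05, and DESeq2 called 1 and 0.

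Prox1os leaned lower in the E14.5 mutants. Controls 1 and 2 of this stage were counted with Cell Ranger 3.1.0, and control 3 and each mutant with 5.0.1. Version and genotype cannot be fully told apart here, since only control 3 shares the version of the mutants. In differentiated neurons of the mutants Prox1os was 24.3, 22.2 and 26.5 CPM, below each of the controls (33.2, 38.6 and 31.5 CPM). The log2 fold change was -0.55 ± 0.13 (SE, 95% interval -0.85 to -0.24), with a raw p of 0.00346 and an FDR of 1.00, and without the second litter it was -0.40 with an FDR of 0.931. The ratio to Prox1 was 34.0 ± 7.68 per 100 in controls and 22.2 ± 2.92 in mutants, and the 2 ranges (27.2 to 42.4 and 18.9 to 24.0) did not overlap. In migrating neurons-2 no direction could be read, with a log2 fold change of -0.02 ± 0.38 (SE), -0.04 without the second litter, and values from -0.35 without control 2 to 0.36 without control 1. Over all sorted cells it was 7.87, 5.44 and 6.70 CPM in controls and 6.03, 2.66 and 5.03 CPM in mutants, with the mutant lower in each litter. The log2 fold change was -0.56 ± 0.31 (SE) with an FDR of 0.518, from -0.81 without mutant 1 to -0.28 without mutant 2, and -0.63 with an FDR of 0.0295 under the littermate block, which called 1801 genes in place of 1. Without the second litter it was -0.41 with an FDR of 0.359. Beside this, progenitors, where Prox1os is nearly absent, were 7.55% ± 3.03 of the PN-like cells in controls and 25.9% ± 4.67 in mutants, and differentiated neurons 37.9% ± 8.73 and 24.4% ± 4.49. Over all PN-like cells, which were not tested at this stage, Prox1os was 21.9 ± 2.55 and 12.1 ± 1.88 CPM. Prox1 was 96.7, 108 and 88.8 CPM there in controls and 76.0, 85.6 and 84.5 CPM in mutants, lower in the mutant of each litter and with no overlap. The choroid plexus or roof plate list (8 genes) also differed without overlap in the differentiated neurons. It ran from 25.9 to 48.2 CPM in controls and from 59.6 to 220 CPM in mutants, with Folr1, Kl, Rspo1 and Gdf7 under 1 CPM. No other marker list lay apart there. With so few libraries a list can lie apart in random order, so this is not read as a result, as for the E18.5 lists. The part of the shares of states and of this list in the lower Prox1os was not tested.

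The genotype difference of Prox1 in differentiated neurons was more negative at E18.5 than at E14.5. In 1 model over both stages, the difference between the 2 log2 fold changes was -0.78 ± 0.25 (SE), with a raw p of 0.00902 and an FDR of 1.00 over 10477 genes, so that it did not pass the correction. This contrast was not refitted under other settings, and its E14.5 part moved with them as given above. For Prox1os it was -0.14 ± 0.26 (SE). Over all sorted cells the same contrast gave -0.09 ± 0.18 for Prox1 and 0.22 ± 0.42 for Prox1os.

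**Figure D5:**
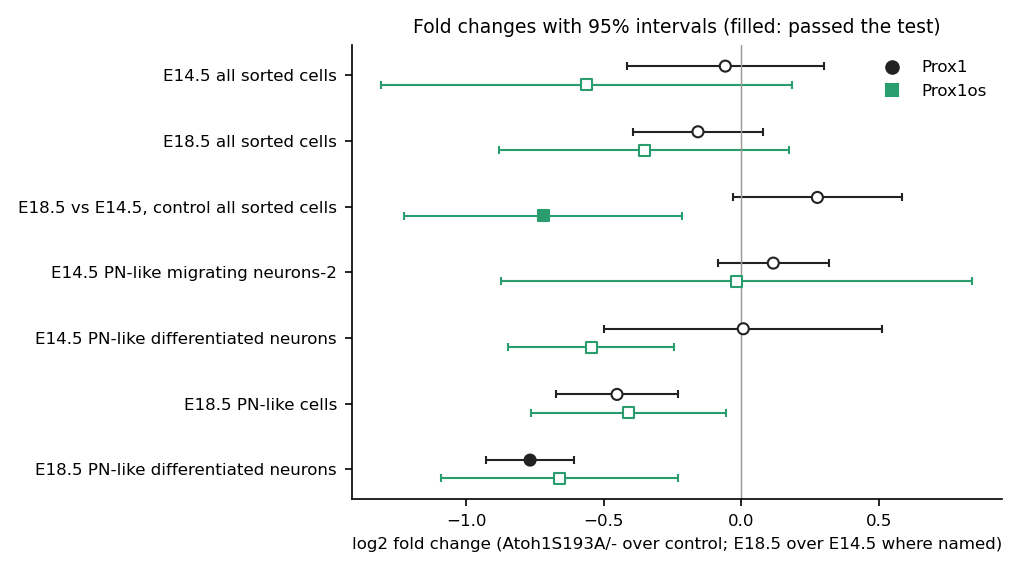
Log2 fold changes of Prox1 (circles) and Prox1os (squares) with 95% intervals in the 7 comparisons, on a linear axis of log2 values. Filled symbols passed the test: Prox1 at -0.77 in E18.5 differentiated PN-like neurons, and Prox1os at -0.72 between the stages.

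Between the stages, in control cells, Prox1os fell and Prox1 did not pass the test. From E14.5 to E18.5, Prox1os over all sorted cells went from 7.87, 5.44 and 6.70 CPM to 3.27, 4.53 and 5.00 CPM, with no overlap. Its log2 fold change was -0.72 ± 0.21 (SE, 95% interval -1.23 to -0.22) with an FDR of 0.0261. Prox1 went from 38.0, 29.1 and 29.6 CPM to 37.6, 39.7 and 46.1 CPM, with a log2 fold change of 0.28 ± 0.13 (SE), an FDR of 0.111 and overlapping libraries. The difference between the 2 transcripts was not tested. In this comparison 51.6% of the 10292 genes were called, so that a call is no mark of these genes. PN-like cells were 21.2% ± 5.68 of the sorted control cells at E14.5 and 11.4% ± 5.01 at E18.5. The call of Prox1os was lost without any one of 4 libraries (controls 1 and 3 of E14.5, controls 1 and 2 of E18.5; FDR 0.0552 to 0.0792). Prox1 passed without E14.5 control 1 (FDR 0.0406). Among libraries counted with Cell Ranger 5.0.1 the FDR of Prox1os was 0.0844, but this leaves a single E14.5 control, assumed to vary like the other groups, so that nothing is read from it about the version.

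Genes linked to Prox1 were read from fixed lists. Of the 13 genes that the study named as companions of the Prox1-marked subtypes, 13 were tested in differentiated PN-like neurons at E18.5, and 2 fell, with a median log2 fold change of -0.44 against -0.0011 over all genes tested, of which 0.0599% were called. The 2 were Zbtb20, a zinc finger transcription factor gene (-1.22 ± 0.09, SE, FDR 0.00067), and Cdkn1c, a cell cycle inhibitor gene (-0.64 ± 0.09, FDR 0.0263). Zbtb20 went from 232, 197 and 195 CPM in controls to 81.9, 84.8 and 100 CPM in mutants, and Cdkn1c from 312, 370 and 301 to 223, 210 and 199 CPM. Both genes are among those that lead the ePN1-like subtype, and without ePN1-like neurons edgeR called no gene of 10095, with 339 at an unadjusted p under 0.05. Leaving out 1 library, 2 genes were called at the fewest (without mutant 1) and 7 at the most. The study chose these companions on the same libraries, so that their direction is no independent evidence. Of the 6 cell cycle genes, 5 were tested and 1 fell (Cdkn1c again). None of the 5 tested relatives and partners and neither of the 2 tested Notch and proneural genes was called, and no regulator or lymphatic target passed the detection filter there. In the other 5 comparisons of genotypes, edgeR without the block called none of the listed genes. The cell cycle gene Ccnd1 came close over all E14.5 sorted cells, at 1.56 ± 0.13 (SE) with an FDR of 0.0503.

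Between the stages, 3 of 5 tested relatives and partners fell, namely the nuclear receptor genes Nr2f1 (log2 fold change -0.66) and Nr2f2 (-0.34), the latter a known partner of Prox1, and the corepressor gene Hdac3 (-0.55). Of 5 tested Notch and proneural genes, the ligand genes Dll3 (-1.38) and Dll1 (-1.67) fell. Among the 6 cell cycle genes, Ccnd1 (1.59), Ccna2 (1.35), Cdkn1b (0.88) and Cdkn1a (0.76) rose and Cdkn1c fell (-2.81). Of the 13 companions, Ppp1r14c, Zic1, Gstm1 and Zic4 rose and 7 fell, led by Crabp1, Meis2, Cdkn1c, Phlda1 and Nr2f1. Each list stands against the 51.6% called overall.

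The coding neighbours of the pair were called in none of the 7 comparisons. Smyd2, the nearest gene on one side, 195672 bases away and coding for a lysine methyltransferase, had 28.8, 21.0 and 22.0 CPM in differentiated control neurons at E18.5 and 23.1, 22.0 and 24.3 CPM in mutants (log2 fold change -0.03 ± 0.12, SE, FDR 0.994). On the other side the nearest gene beyond Prox1os, the noncoding Gm29678, was too rarely detected to be tested. The next coding gene there, the kinase gene Rps6kc1, 529488 bases away, gave -0.05 ± 0.16 (SE, FDR 0.994). In differentiated neurons at E14.5, Rps6kc1 gave 0.47 ± 0.22 with an FDR of 1.00.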

How the data were processed

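Single-cell RNA-seq of sorted TdTomato-positive cells was deposited by the authors as UMI counts per gene and barcode, 1 matrix for each of 14 libraries. Per the labels, the authors aligned reads to mm10 with an added WPRE sequence using Cell Ranger 5.0.1; the file headers give 3.1.0 for E14.5 controls 1 and 2 and 5.0.1 for the other 12. Counting by strand is not stated in the sources used here. The S193A allele is a point mutation, which 3′ counts of Atoh1 do not check. The members and gene lists were chosen with earlier results of these data known.

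Cells with at least 1000 genes and at most 5% mitochondrial UMIs were kept, and the 7.5% with the highest doublet scores removed in each library (scanpy 1.11.5). Cells were clustered per stage on 2000 variable genes, 30 components and 15 neighbours (Leiden, resolution 1; seed 1), without Prox1, Prox1os, Gm28172, sex-linked and mitochondrial genes and WPRE. Clusters were named by fixed markers, with limits set after cluster means were seen; shallow or mixed clusters stayed unnamed. UMIs were summed per library (at least 10 cells) and tested with edgeR 4.0.16 (TMM, quasi-likelihood) in R 4.3.3, with genes called past 0.25 in log2 fold change if the FDR was below 0.05. The study's own test of gene expression between genotypes compared cells, which are not replicates. Adjusted p-values run over all genes with a UMI in 10% of the cells of a group, plus Prox1 and Prox1os. The depth was 108239001 to 236964126 UMIs per library. Alternatives were DESeq2 1.42.0, no detection filter, 10% mitochondrial UMIs, no doublet removal, resolution 2, each library left out, 1 Cell Ranger version and the littermate block. The test scripts were tested on simulated data. Per the labels, each mutant embryo was collected with a littermate control; the labels do not say which libraries pair, and pairs were taken by replicate number because libraries of the same number deviated together in every genotype comparison (correlations of 0.26 to 0.92). Named genes were Prox1, Prox1os, the genes most correlated with them over clusters (5 and 3 per stage), up to 5 called genes per linked list and direction, and the nearest neighbours; cluster leaders are named as labels only.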

Additional observations from a re-analysis of the deposited data

Results flagged for a closer look

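The genotype difference of Prox1 in differentiated PN-like neurons stood out between stages: the log2 fold change at E18.5 minus that at E14.5 was -0.78, with a raw p of 0.00902 in edgeR's quasi-likelihood test and an FDR of 1.00. At E18.5 the mutant was lower in 3 of 3 litters, while at E14.5 the littermates differed by -0.0033, -0.27 and 0.57 on the log2 scale of CPM, in no common direction. Differentiated neurons are not the same mix of subclusters at the 2 stages, and the part of this in the result was not tested.

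Another transcript of the locus was counted but enters no comparison above. Gm28172, an annotated antisense gene within Prox1 (chr1:190168670-190169633, plus strand), had 776 UMIs over the 14 libraries, 12 to 108 in each, above the 3 counts that a count of 0 allows in a library. That is 1.13 UMIs per 100 Prox1 UMIs.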

How the results depend on the processing

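The fall of Prox1 in E18.5 differentiated neurons was called without each library in turn (log2 fold change -0.83 to -0.72), with DESeq2, without the detection filter, with 10% mitochondrial UMIs, without doublet removal and at resolution 2, but not in ePN1-like neurons alone (-0.66) or without them (-0.11, and 0.047 for Prox1os, which turned). Of 189 values of the 2 genes under other settings, 165 kept direction and call, 12 turned, 5 gained and 7 lost the call, and the cause was not tested. Those that turned were not called before or after. The 165 include the values of the Prox1 share, whose permutation tests cannot go below p = 0.1 and so could not change call. Prox1 over all E14.5 cells was 0.043 with 10% mitochondrial UMIs, 0.023 with Cell Ranger 5.0.1 libraries (1 E14.5 control, assumed to vary like the other groups) and -0.12 to 0.060 without 1 library; in E14.5 differentiated neurons it was -0.0066 without the filter, 0.48 with Cell Ranger 5.0.1 libraries and -0.19 to 0.29 without 1 library. Prox1os in migrating neurons-2 was -0.35 to 0.36 without 1 library. Between stages, Prox1 was called with 10% mitochondrial UMIs (0.38) and ran from 0.17 to 0.38 without 1 library. There Prox1os was -0.78 with Cell Ranger 5.0.1 libraries (not called with 1 E14.5 control) and -0.87 to -0.55 without 1 library. In E18.5 differentiated neurons Prox1os was called without the filter (-0.67).

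With littermate pairs as a replicate block, Prox1os over all E14.5 cells (-0.63) and Prox1 in E18.5 PN-like cells (-0.46) were called, Prox1os in migrating neurons-2 turned to 0.045, and no other call of the 2 genes changed. The share of differentiated neurons with a Prox1 UMI gave p = 0.25 by exact sign flips over the pairs, the smallest 3 pairs allow. The block called 1801 genes over all E14.5 cells, 25 over all E18.5 cells, 8 in migrating neurons-2, 2 in E14.5 differentiated neurons, 38 in E18.5 PN-like cells and 59 in E18.5 differentiated neurons.

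Counts of genes called also moved otherwise. Over all E14.5 cells (1 gene) DESeq2 called 249, 10% mitochondrial UMIs 11, and no doublet removal, Cell Ranger 5.0.1 libraries or no second litter 0, with 0 to 1 without 1 library. Over all E18.5 cells (0 genes) DESeq2 called 13. In migrating neurons-2 (0) DESeq2 called 1, no filter 12, no second litter 18, and 0 to 2 were called without 1 library. In E14.5 differentiated neurons (0) 1 was called without the second litter and 0 to 1 without 1 library. In E18.5 PN-like cells (0) DESeq2 called 9, no filter 8, 10% mitochondrial UMIs 2 and no doublet removal 1. In E18.5 differentiated neurons (6) DESeq2 called 25, no filter 137, and 0 were called without ePN1-like neurons, with 2 to 7 without 1 library. Prox1os was low over all sorted cells, at 2.66 to 7.87 CPM, and the part of depth in its results was not tested.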
